A study of Mus musculus with 6 samples.

Results

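The 38 genes described here encode the enzymes and regulators with which a cell removes peroxides, superoxide and reactive electrophiles. They were chosen by name, as genes of glutathione, thioredoxin, superoxide and NADPH metabolism with neighbouring detoxifying and iron genes. The choice was made with earlier results of these data known, so shares set against all genes below are descriptions, not tests. Each count table lists 24014 genes, among them all 38. The RNA came from epidermal cells of wild type mice, taken from newborn back skin on postnatal day 2. In 3 libraries the skin was healing from suction blisters, in which negative pressure had lifted the epidermis off the dermis, and 3 libraries came from control skin of the same age. The epidermis of both groups was freed by trypsin overnight, minced and filtered, with no sorting step named in the labels, so each library holds every cell that came away with it. The labels name no strain, no interval since blistering and no count of animals per library, so the p-values below rest on the spread of these 6 libraries, part of which may be technical. Where 3 values are given together, they stand for libraries 1, 2 and 3 of the group in that order, and a number after ± is the SD over these 3 for CPM and the SE for a log2 fold change.

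Glutathione is a tripeptide made from glutamate, cysteine and glycine, and its reduced form supplies electrons to glutathione peroxidases and is joined to electrophiles by glutathione transferases. Thioredoxin serves the peroxiredoxins in the same way, and both systems are recharged by reductases that draw on NADPH, much of it from the oxidative branch of the pentose phosphate pathway. Many of these genes are targets of NRF2, the product of Nfe2l2, a transcription factor that KEAP1 marks for destruction until oxidants or electrophiles modify KEAP1. In skin, NRF2 is known for protecting keratinocytes and for raising cornified envelope genes when it is overactive.

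Of the 38 genes, 37 passed the filter on low counts and were tested, and 18 of them differed between blister and control epidermis. Levels are given as CPM, each gene's share of its library's counts on a common scale, with TMM factors applied. With edgeR's quasi-likelihood test and a threshold of 0.05 on the adjusted p, 14 genes were higher in blister libraries (37.8% of those tested) and 4 were lower (10.8%). Over all 14028 genes tested, 9.74% were called higher and 11.6% lower. The other 19 genes were not called. The median log2 fold change, blister over control, was 0.41 over the 37 genes and 0.00 over all genes tested. The 3 blister libraries lay above all controls for 18 of the 37 genes and below them for 6, against 21.4% and 23.2% of all genes tested. The risers were Nfe2l2, the cystine importer gene Slc7a11, 2 glutathione transferase genes, Gpx1, 5 genes of the thioredoxin and peroxiredoxin class, Sod2, G6pdx, Pgd and Cbr3. The genes that fell were Gclc, Gstm5, Txnrd1 and Ephx1. Of 112 further genes of the same pathways 102 were tested, of which 15 were higher and 7 lower, with a median of 0.09.

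**Figure D1:**
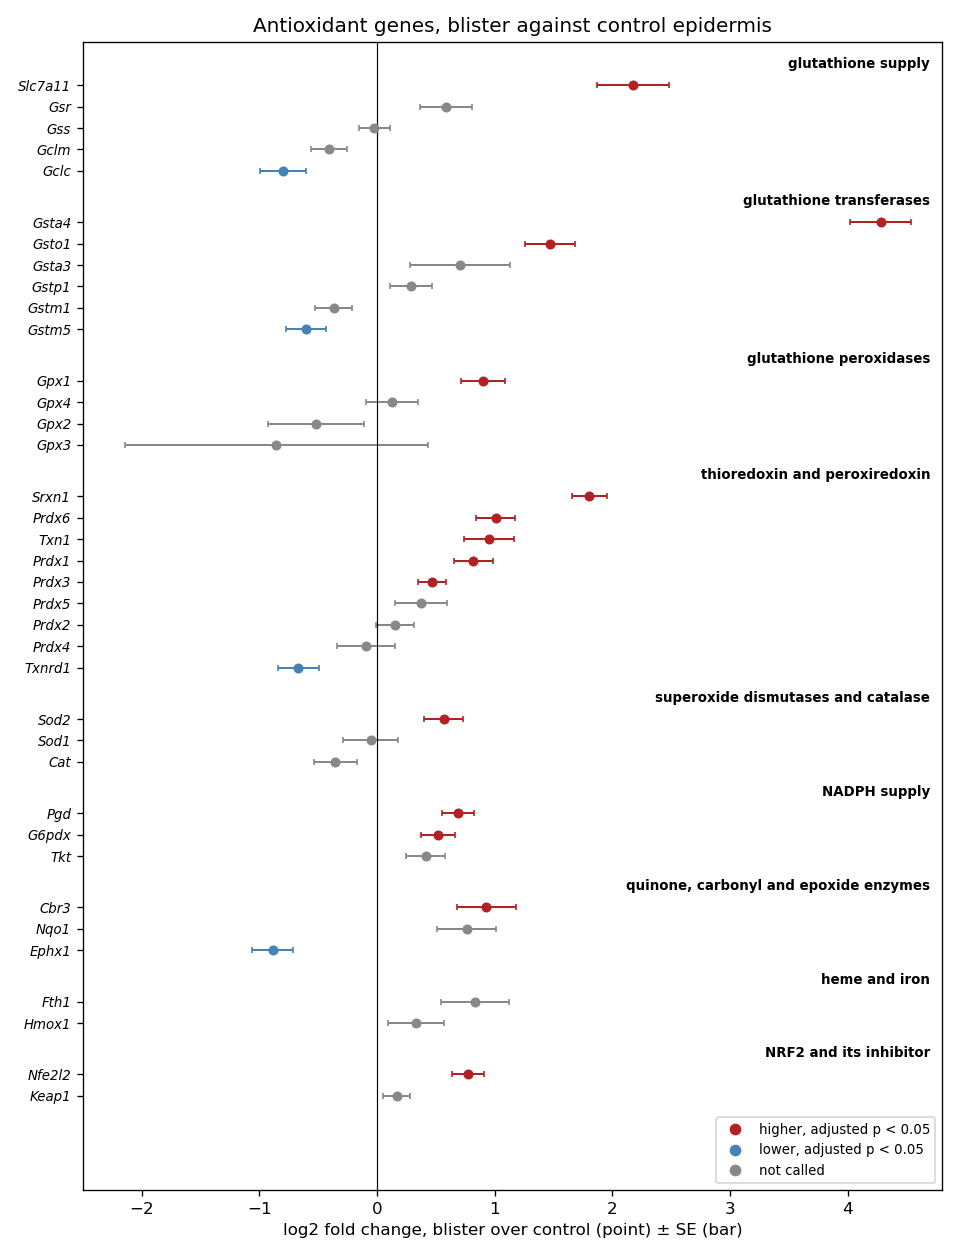
Log2 fold change of the 37 tested genes, blister over control, as points with standard error bars, by enzyme class. Red marks the 14 genes called higher and blue the 4 called lower, with Gsta4 farthest to the right at 4.28 and Ephx1 lowest of the called genes at -0.89.

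The counts of calls depended on which libraries were used, while no called gene changed direction. Slc7a11, Gsta4, Gsto1, Prdx6 and Srxn1 passed in all 16 alternative settings, and the other 13 called genes lost their call in at least 1 of the 6 fits that left out 1 library. Without blister 1, 6 genes were higher and 0 lower, and without control 1, 5 were higher and 0 lower. Without blister 2 the numbers were 13 and 1, without control 2 they were 9 and 0, and without control 3 they were 6 and 2. Without blister 3, 16 were higher and 3 lower. In the 3 fits with 0 lower calls, 4 or 5 genes were lower at an unadjusted p under 0.05. The share of all genes called moved too, from 5.52% without control 1 to 28.3% without blister 3. With scaling by library size alone 9 were higher and 7 lower. That scaling moved the median log2 fold change of all genes to -0.25, and the 37 genes' median exceeded it by 0.41, as it did with TMM factors.

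Total counts ran from 7600567 to 15912863 per library. All 6 keratinocyte markers looked at (Krt5, Krt14, Krt1, Krt10, Trp63 and Cdh1) were found in all libraries, 3 of them higher in blister libraries and 0 lower, with sums of 100174 to 185374 CPM against 58715 to 83363 CPM in controls. Of 8 markers of the hair follicle matrix and shaft 7 fell, and their summed level was 79.7 to 610.2 CPM in blister libraries and 1891 to 3508 CPM in controls. Of 8 dermal fibroblast markers 4 fell, with sums of 107 to 820.4 CPM in blister libraries and 663 to 6151 CPM in controls, and the highest sum was in control 3. The neutrophil list had 4 of 10 genes tested, all 4 called higher, with sums of 73.2 to 198 CPM in blister libraries and 26.0 to 27.4 CPM in controls, while the other 6 were below the filter: Mmp8 with 32, 47 and 9 counts in blister libraries, Ngp with 7, 28 and 2, and Ltf, Camp, Mpo and Elane with 0 to 6. Macrophage and Langerhans cell markers had 0 of 8 called in edgeR, DESeq2 and limma-voom (1 at an unadjusted p under 0.05), with sums of 133 to 240.1 CPM in blister libraries and 159 to 223 CPM in controls. Melanocyte markers fell in 3 of 5 (315 to 503 CPM in blister libraries and 788 to 931 CPM in controls) and endothelial markers in 1 of 5 (4.22 to 10.6 CPM in blister libraries and 9.44 to 70.3 CPM in controls). All 5 globin genes of the red blood cell list are listed at 0 in every library, and of its other genes 2 were tested and 1 fell, with sums of 9.51 to 22.0 CPM in blister libraries and 15.5 to 16.8 CPM in controls. In bulk RNA, fewer cells of a type and less RNA per cell cannot be told apart, and the part of these markers in the results below was not tested. Among the 18 called genes blister 3 was the blister library nearest to the control mean for 13, blister 2 for 5 and blister 1 for 0. Xist, the RNA of the inactive X chromosome, was high in 2 blister libraries (1 and 2) and 1 control (1), so the sexes were not balanced between groups.

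Nfe2l2, the gene of NRF2 itself, was higher in every blister library. It stood at 111, 83.0 and 89.2 CPM after blistering, against 53.7, 57.6 and 54.6 CPM in controls. The lowest blister value, in blister 2, lay above the highest control. The log2 fold change was 0.77 ± 0.13 (SE, edgeR adjusted p = 0.0124), 1.71-fold, and the adjusted p was 0.0559 without control 1, the single alternative in which the call was lost. Keap1, the adaptor that hands NRF2 to the ubiquitin system, was at 97.3, 91.1 and 92.6 CPM after blistering, against 78.3, 94.0 and 78.2 CPM in controls, overlapping ranges (log2 fold change 0.17 ± 0.12, edgeR adjusted p = 0.315). In a GENCODE annotation 10.9% of Keap1's exon bases overlap an antisense transcript, and the strand setting of the counting is not known. Of 11 other genes of this regulatory circuit that were tested, 1 rose and 1 fell, both of them repressors that bind the same DNA elements as NRF2. Each share was 9.09%, near the 9.74% higher and 11.6% lower among all genes tested. Bach1, which heme inactivates, rose from 52.3 ± 10.0 to 84.7 ± 7.71 CPM (SD, n = 3, edgeR adjusted p = 0.0236). Bach2 fell from 62.2 ± 9.01 to 17.9 ± 12.3 CPM (edgeR adjusted p = 0.0271), with blister 3 at 31.8 CPM, the blister library nearest to the controls.

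NRF2 binds antioxidant response elements, whose core shares letters with the AP-1 element, so the promoters of the genes were searched for both. RefSeq promoter windows on GRCm38.p6, reaching from 250 bases before a gene's start to 50 after it, were found for 33 of the 38 genes (Gclc, Gsr, Gsta4, Prdx6 and Hmox1 were not matched). The response element core was searched as TGACNNNGC and TGAGNNNGC and the AP-1 element as TGAGTCA and TGACTCA, each on both strands. At least 1 window with a core match was found for 13 of the 33 genes, 39.4%, against 30.8% of all genes with a window. An AP-1 match was found for 4 genes, 12.1%, against 5.95%, of which 2 were called higher, 1 was called lower and 1 was not called. A core match was present for 6 of the 12 matched genes called higher, 2 of the 3 called lower and 4 of the 17 not called (the last was Gstt1, not tested). These are matches of letters, not measured binding. The stretches below show where the matches lie in 5 genes that rose (Srxn1, Prdx1, Slc7a11, G6pdx and Nfe2l2), 1 that fell (Txnrd1) and 1 that was not called (Gclm). Each reads 5′ to 3′ along the gene's own strand, with matches of either kind in capitals, and holds bases upstream of the start alone.
Srxn1, chr2:152105336-152105517, forward strand: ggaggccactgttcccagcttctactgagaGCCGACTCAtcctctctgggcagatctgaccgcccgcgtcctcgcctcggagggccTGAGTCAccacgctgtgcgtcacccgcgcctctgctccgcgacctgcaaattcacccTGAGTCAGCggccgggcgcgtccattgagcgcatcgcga
Prdx1, chr4:116685349-116685504, forward strand: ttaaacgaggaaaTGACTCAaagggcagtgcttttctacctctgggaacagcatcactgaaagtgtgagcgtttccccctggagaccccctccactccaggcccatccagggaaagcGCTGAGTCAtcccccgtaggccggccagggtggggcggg
Slc7a11, chr3:50443672-50443740, reverse strand: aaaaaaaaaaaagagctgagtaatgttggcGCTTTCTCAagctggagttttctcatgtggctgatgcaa
G6pdx, chrX:74428899-74428967, reverse strand: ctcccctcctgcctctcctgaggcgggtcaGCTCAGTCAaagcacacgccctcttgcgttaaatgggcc
Nfe2l2, chr2:75704865-75704913, reverse strand: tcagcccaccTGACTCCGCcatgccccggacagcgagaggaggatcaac
Txnrd1, chr10:82859084-82859152, forward strand: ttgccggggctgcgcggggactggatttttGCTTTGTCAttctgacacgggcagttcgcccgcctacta
Gclm, chr3:122245393-122245461, forward strand: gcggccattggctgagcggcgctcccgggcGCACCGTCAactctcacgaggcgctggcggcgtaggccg

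In Srxn1 a core match on the opposite strand starts at 158 bases before the start, the AP-1 letters start at 102 and again at 45 bases before the start, and the second match is followed by GC, so that it is also a response element core. In Prdx1 a core match on the opposite strand starts at 133 bases before the start and overlaps an AP-1 match that starts at 131. Such an overlap was not limited to genes that rose. In Gstp1, which was not called and is not shown above, a core match and an AP-1 match both start at 74 bases before the start. Txnrd1 has 3 windows in the table, and the match is in 1 of them. Genes with core matches were thus found among those that rose, those that fell and those not called.

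Of the 5 genes of glutathione supply 1 rose and 1 fell (median log2 fold change -0.02), with the cystine importer gene up and a subunit gene of the first synthetic enzyme down. Slc7a11 encodes the exchanger that brings in cystine, the source of glutathione's cysteine. It was at 33.4, 22.9 and 16.0 CPM after blistering, against 4.68, 4.55 and 6.71 CPM in controls. The lowest blister value, in blister 3, was far above the highest control. Slc7a11 was 4.51-fold higher (log2 fold change 2.17 ± 0.31, edgeR adjusted p = 0.00792). Its partner chain gene Slc3a2, which also serves other amino acid transporters, was at 198 against 196 CPM (edgeR adjusted p = 0.946).

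Gclc, the catalytic subunit of glutamate-cysteine ligase and the rate-limiting enzyme of glutathione synthesis, was at 46.4, 53.1 and 78.5 CPM after blistering, against 99.5, 102 and 109 CPM in controls. All blister values lay below all controls, and blister 3 was the nearest to them. The fall was 1.74-fold (log2 fold change -0.80 ± 0.19, edgeR adjusted p = 0.0282, lost in 5 of the 6 fits without 1 library, up to 0.0828). Gclm, the modifier subunit, was also lower in every blister library, at 23.9, 33.9 and 28.5 CPM against 40.2, 38.2 and 35.6 CPM, and was not called (log2 fold change -0.41 ± 0.15, edgeR adjusted p = 0.0918). Gss, which encodes the enzyme of the second step, was at 30.2 ± 3.69 against 30.6 ± 1.44 CPM (edgeR adjusted p = 0.912). Gsr, the reductase that regenerates glutathione, was at 60.5, 82.3 and 42.5 CPM after blistering, against 42.0, 40.5 and 40.7 CPM in controls (edgeR adjusted p = 0.0937). Blister 1 and 2 were high in Gsr, while blister 3 stood close to the controls, and without blister 3 the adjusted p was 0.0140. Among 15 other tested genes of glutathione and cysteine metabolism 2 fell, 13.3%, near the 11.6% of all genes tested. Cbs, the first enzyme of the route from homocysteine to cysteine, fell from 81.2 ± 6.40 to 49.6 ± 9.38 CPM (edgeR adjusted p = 0.0226). Ggt1, which breaks down glutathione outside the cell, fell from 8.94 ± 2.58 to 1.03 ± 1.01 CPM (edgeR adjusted p = 0.0187), and is named because it completes the count.

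The largest change among the 37 genes was in a glutathione transferase, a class of which 2 rose and 1 fell among 6 tested (median log2 fold change 0.50). Gsta4 encodes an alpha class transferase with a known preference for 4-hydroxynonenal, an aldehyde released by lipid peroxidation. Gsta4 stood at 62.7, 41.8 and 56.9 CPM after blistering, against 3.30, 3.15 and 1.93 CPM in controls, from 304 to 683 counts per blister library and 34 to 45 per control. The groups were far apart, and blister 3 was not the lowest of its group. The difference was 19.4-fold (log2 fold change 4.28 ± 0.26, edgeR adjusted p = 0.00343), and between 4.02 and 4.44 on the log2 scale over the 16 alternatives.

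Gsto1, an omega class transferase that acts mainly as a thiol reductase, rose 2.77-fold, at 586, 606 and 392 CPM after blistering, against 183, 229 and 160.1 CPM in controls (log2 fold change 1.47 ± 0.21, edgeR adjusted p = 0.00814). Blister 3 was the lowest of the blister libraries and still above each control. In the mu class 1 gene fell. Gstm5 was at 18.0, 20.1 and 17.2 CPM after blistering, against 27.1, 33.4 and 23.3 CPM in controls and was called lower (log2 fold change -0.60 ± 0.17, edgeR adjusted p = 0.0435), a call lost in limma-voom (0.0512), without the filter (0.0503), with Xist as a covariate (0.0643) and in 5 of the 6 fits without 1 library (up to 0.136). An antisense transcript overlaps 13.9% of its exon bases. Gstm1 was at 24.7, 24.6 and 21.3 against 26.3, 28.8 and 36.0 CPM, each blister library below each control, and was not called (edgeR adjusted p = 0.126). The mu genes are close copies, as are the pi genes, and reads may be split among them or left out.

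Gstp1, the pi class transferase, was at 26.9, 35.7 and 22.8 against 23.5, 23.8 and 22.4 CPM (edgeR adjusted p = 0.265), with overlapping groups. Gsta3 was barely present, at 1.49 ± 0.635 against 0.903 ± 0.156 CPM (9 to 21 counts per library, edgeR adjusted p = 0.257). Gstt1, a theta class gene, did not pass the filter: it had 1, 1 and 4 counts in blister libraries and 1, 8 and 25 in controls. Of 18 other transferase and glutathione conjugate export genes tested, 3 rose and 0 fell in edgeR, DESeq2 and limma-voom alike (1 was lower at an unadjusted p under 0.05 in edgeR). In edgeR the rises were 16.7% of the 18, while 9.74% of all genes tested were called higher and 11.6% lower. Hpgds, a sigma class transferase that makes prostaglandin D2, rose 2.23-fold, from 50.3 ± 2.73 to 112 ± 23.0 CPM (edgeR adjusted p = 0.00740). Mgst3, a microsomal transferase, rose from 43.8 ± 2.31 to 62.3 ± 7.55 CPM (edgeR adjusted p = 0.0301). Gstcd, named to complete the count, rose from 16.1 ± 0.449 to 22.9 ± 2.40 CPM (edgeR adjusted p = 0.0418).

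Glutathione peroxidases are mostly selenium enzymes that reduce peroxides with glutathione, and of their 4 genes 1 was called. Of the other 2 tested genes of this family, 0 were called by edgeR, DESeq2 or limma-voom, or at an unadjusted p under 0.05. Gpx1, the cytosolic enzyme for hydrogen peroxide, was at 534, 528 and 358 CPM after blistering, against 244, 291 and 227 CPM in controls. Blister 1 and 2 were alike and blister 3 lay nearer to the controls, without overlap. Gpx1 rose 1.87-fold (log2 fold change 0.90 ± 0.19, edgeR adjusted p = 0.0196), a call lost in 3 of the 6 fits without 1 library (edgeR adjusted p up to 0.0766). Gpx4, which reduces lipid peroxides within membranes, was at 71.8, 118 and 65.2 against 83.8, 77.9 and 71.0 CPM, with blister 2 the highest of all 6 and the other 2 blister libraries within or below the controls (log2 fold change 0.13 ± 0.22, edgeR adjusted p = 0.705). Gpx2, an epithelial form, was at 1.80 ± 0.822 against 2.59 ± 0.552 CPM on 10 to 44 counts per library (edgeR adjusted p = 0.378). Gpx3, a secreted form, varied far more within groups than between them, at 0.734, 7.43 and 0.764 CPM after blistering, against 0.921, 0.700 and 13.5 CPM in controls. Its high libraries, blister 2 and control 3, were also the highest of their groups in the summed dermal fibroblast markers, at 820.4 and 6151 CPM against 107 to 893 CPM in the other 4 libraries. Across groups the order differed, since control 2, at 893 CPM, exceeded blister 2 in these markers and had the lowest Gpx3 of all 6 libraries. Whether Gpx3 came from dermal fibroblasts was not tested.

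The thioredoxin and peroxiredoxin class, the largest with 9 genes, held the most calls, 5 up and 1 down (median log2 fold change 0.47). These were 55.6% and 11.1% of the 9, against 9.74% and 11.6% of all genes tested. The reductase at the head of the class was the one that fell. Srxn1 encodes sulfiredoxin, which repairs peroxiredoxins that have been overoxidised by peroxide. It stood at 73.4, 63.6 and 53.7 CPM after blistering, against 16.9, 17.9 and 19.7 CPM in controls. The groups were far apart, and blister 3 was the lowest of its own. Srxn1 rose 3.49-fold (log2 fold change 1.80 ± 0.15, edgeR adjusted p = 0.00343). Txn1, cytosolic thioredoxin, was at 271, 386 and 226 CPM after blistering, against 158, 168 and 130.0 CPM in controls, 1.94-fold higher, with its peak in blister 2 (edgeR adjusted p = 0.0225, lost with library size alone at 0.0527 and in 4 of the 6 fits without 1 library, up to 0.0736). Txnrd1, the selenium-containing reductase that returns thioredoxin to its reduced form, fell, at 68.0, 73.2 and 105 CPM after blistering, against 128, 123 and 141 CPM in controls. The groups did not overlap, and blister 3 was again the nearest to the controls. Its log2 fold change was -0.67 ± 0.17, 1.59-fold lower (edgeR adjusted p = 0.0348, lost in 5 of the 6 fits without 1 library, up to 0.109).

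Among the peroxiredoxins, enzymes that reduce peroxides through a reactive cysteine, 3 of 6 rose. Prdx1, the main cytosolic form, was at 727, 694 and 530.3 CPM after blistering, against 382, 404 and 321 CPM in controls, 1.76-fold higher (log2 fold change 0.82 ± 0.17, edgeR adjusted p = 0.0181, lost in 3 of the 6 fits without 1 library). Prdx6, which draws on glutathione and also acts as a phospholipase, was at 209, 167 and 145 CPM after blistering, against 82.6, 98.1 and 78.3 CPM in controls. Its lowest blister value exceeded its highest control by a clear margin, and it rose 2.01-fold (log2 fold change 1.01 ± 0.16, edgeR adjusted p = 0.0105). Prdx3, the mitochondrial form, rose 1.38-fold with little spread, at 36.8, 35.4 and 32.0 against 24.8, 24.1 and 26.3 CPM (edgeR adjusted p = 0.0327), a call lost with library size alone (0.261), with Xist as a covariate (0.0674) and in 5 of the 6 fits without 1 library (up to 0.121). The other 3 overlapped between groups. Prdx2, a cytosolic form abundant in red blood cells, was at 401, 332 and 292 against 311, 345 and 267 CPM (edgeR adjusted p = 0.526), and 5.67% of its exon bases overlap Junb on the other strand. Prdx5 was at 343, 259.8 and 226 against 227, 254 and 160.0 CPM (edgeR adjusted p = 0.248), and 19.1% of its exon bases overlap Trmt112. Prdx4, the form of the endoplasmic reticulum, was at 18.2, 32.9 and 18.1 against 22.0, 25.0 and 26.3 CPM, with blister 2 apart from the other blister libraries (edgeR adjusted p = 0.805).

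Further genes of thioredoxin and methionine sulfoxide reduction gave 5 rises and 1 fall among 13 tested. The shares were 38.5% and 7.69%, against 9.74% and 11.6% of all genes tested. Txnrd3, a relative of Txnrd1 that can reduce both thioredoxin and glutathione, rose 1.81-fold, from 35.7 ± 4.38 to 64.7 ± 2.47 CPM (edgeR adjusted p = 0.00814), while Txnrd1 fell. Txndc17, a small thioredoxin-like protein, rose 1.81-fold, from 163 ± 5.65 to 295 ± 44.3 CPM (edgeR adjusted p = 0.0102). The remaining calls, named to complete the count, were rises of the mitochondrial thioredoxin gene Txn2 (102 to 155 CPM), of Txnl1 (91.0 to 134 CPM) and of the methionine sulfoxide reductase gene Msrb1 (35.2 to 60.7 CPM), and a fall of its relative Msrb3 (24.7 to 11.0 CPM).

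**Figure D2:**
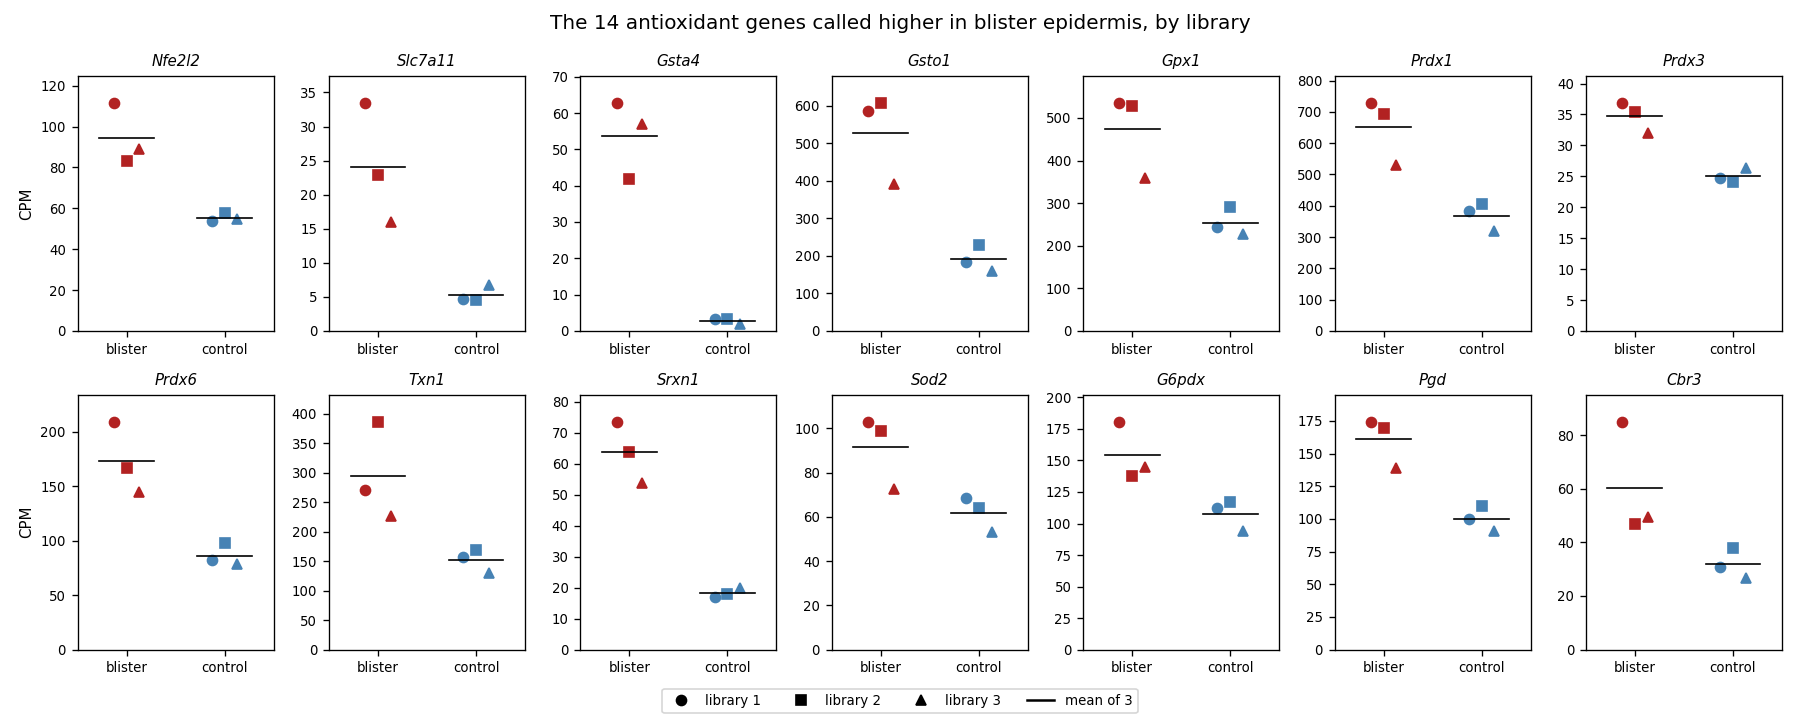
CPM in each library of the 14 genes called higher, on linear axes from 0, with symbols for library 1, 2 and 3 of each group and a bar at the mean of 3. In all 14 panels the blister points lie above the control points, with the largest fold difference for Gsta4 (62.7, 41.8 and 56.9 against 3.30, 3.15 and 1.93 CPM).

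Superoxide dismutases turn superoxide into hydrogen peroxide, which catalase splits, and of the 3 genes here 1 rose. Sod2, the mitochondrial enzyme, was at 103, 98.8 and 72.6 CPM after blistering, against 68.4, 64.1 and 53.1 CPM in controls and was called at the margin of the threshold (log2 fold change 0.56 ± 0.17, edgeR adjusted p = 0.0498). That call was lost in 12 of the 16 alternatives, including median of ratios scaling and limma-voom. Sod1, the cytosolic enzyme, was at 54.6, 91.8 and 49.9 against 61.5, 75.6 and 66.2 CPM, with the blister libraries on both sides of the controls (log2 fold change -0.06 ± 0.23, edgeR adjusted p = 0.879). Cat, the catalase gene, was at 107, 88.5 and 119 against 130.3, 165 and 108 CPM (log2 fold change -0.36 ± 0.18, edgeR adjusted p = 0.189), and passed as lower with scaling by library size alone (0.0439). The other 2 genes tested here gave 0 calls: Sod3, the secreted dismutase, at 3.82 ± 4.81 against 8.02 ± 4.75 CPM (edgeR adjusted p = 0.359), and Ccs, the copper chaperone of Sod1, at 37.7 ± 7.80 against 33.8 ± 5.32 CPM (edgeR adjusted p = 0.582).

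All 3 genes of NADPH supply had each blister library above each control, and 2 of 3 were called higher (median log2 fold change 0.52). Over all genes tested these shares were 21.4% and 9.74%, and 3 genes are too few to compare with them. G6pdx encodes glucose-6-phosphate dehydrogenase, the entry to the pentose phosphate pathway. It was at 181, 138 and 145 CPM after blistering, against 112, 117 and 94.4 CPM in controls (log2 fold change 0.52 ± 0.15, edgeR adjusted p = 0.0433). G6pdx lies on the X chromosome, and its adjusted p was 0.0855 with Xist as a covariate and 0.165 with library size alone and 0.0921 without blister 3 and control 3, and the call was lost in 4 of the 6 fits without 1 library. In the annotation 13.6% of its exon bases overlap Ikbkg on the other strand. Pgd, the second dehydrogenase of the pathway, was at 174, 169.7 and 139 CPM after blistering, against 99.7, 110.1 and 90.6 CPM in controls, 1.61-fold higher (log2 fold change 0.69 ± 0.13, edgeR adjusted p = 0.0161, lost in 3 of the 6 fits without 1 library). Blister 1 and 2 were alike in Pgd and blister 3 was lower. Tkt, the transketolase that feeds pentoses back to glycolysis, was at 487, 479.6 and 409 against 345, 407 and 280.3 CPM. Control 2 nearly reached blister 3 in Tkt, and the gene was not called (log2 fold change 0.41 ± 0.17, edgeR adjusted p = 0.110).

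Of 16 other tested genes listed with NADPH supply, not all of which make NADPH themselves, 4 rose and 1 fell. These were 25% and 6.25% of the 16, against 9.74% and 11.6% of all genes tested. Shmt2, the mitochondrial serine hydroxymethyltransferase, rose 1.69-fold, from 117 ± 4.65 to 198 ± 24.7 CPM (edgeR adjusted p = 0.0106), and Aldh1l2, the mitochondrial formyltetrahydrofolate dehydrogenase, 2.78-fold, from 7.98 ± 1.55 to 22.1 ± 8.53 CPM (edgeR adjusted p = 0.0181). Mthfd2 (16.4 to 29.4 CPM) and Aldh1l1 (6.53 to 13.4 CPM) were the other two, and Idh1, the cytosolic NADP-dependent isocitrate dehydrogenase, fell from 182 to 115 CPM. These 3 are named to complete the count.

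Of the 3 genes for quinone, carbonyl and epoxide enzymes 1 rose and 1 fell. Cbr3, a carbonyl reductase, was at 84.9, 46.8 and 49.5 CPM after blistering, against 30.8, 37.9 and 26.7 CPM in controls, with blister 1 well above the rest. Its log2 fold change was 0.93 ± 0.25 (edgeR adjusted p = 0.0390), and the call was lost with library size alone (0.0572), with Xist as a covariate (0.0827), without blister 3 and control 3 (0.0757) and in 4 of the 6 fits without 1 library (up to 0.116). Nqo1, a quinone reductase often used as a readout of NRF2, was low in all libraries, at 6.79, 4.82 and 7.39 CPM after blistering, against 4.07, 3.78 and 3.41 CPM in controls. Each blister library was above each control in Nqo1, on 35 to 87 counts per library, and the gene was not called (log2 fold change 0.76 ± 0.25, edgeR adjusted p = 0.0660). Ephx1, microsomal epoxide hydrolase, fell 1.85-fold, at 24.7, 28.8 and 38.6 CPM after blistering, against 54.0, 59.6 and 57.1 CPM in controls (log2 fold change -0.89 ± 0.17, edgeR adjusted p = 0.0160, lost in 3 of the 6 fits without 1 library, up to 0.0531). Among 11 other tested genes of this kind 1 was called, 9.09% higher against 9.74% of all genes tested. That gene was Akr1b8, an aldo-keto reductase. It rose 5.97-fold, at 30.1, 83.7 and 33.5 CPM after blistering, against 10.3, 6.93 and 7.34 CPM in controls, with blister 2 far above the other two (edgeR adjusted p = 0.0104).

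The 2 heme and iron genes gave 0 calls in edgeR and limma-voom and 1 in DESeq2 (1 at an unadjusted p under 0.05). Hmox1, which splits heme and is a classical target of both NRF2 and BACH1, was at 47.2, 84.5 and 56.3 CPM after blistering, against 51.7, 39.1 and 58.1 CPM in controls, with overlapping groups (log2 fold change 0.33 ± 0.24, edgeR adjusted p = 0.336). Fth1, the heavy chain of the iron store ferritin, was at 477, 764 and 322 CPM after blistering, against 293, 268 and 319.7 CPM in controls. Blister 3 almost met control 3, and blister 2 stood far above the others. Fth1 was not called in edgeR (log2 fold change 0.83 ± 0.29, adjusted p = 0.0773), though it passed in DESeq2 (adjusted p = 0.0168) and without blister 3 (edgeR adjusted p = 0.0152). Ferritin translation is set by iron, so its RNA need not follow its protein. Of 14 other tested genes of heme and iron handling 0 rose and 2 fell in edgeR, DESeq2 and limma-voom alike (2 were higher at an unadjusted p under 0.05 in edgeR). The share called lower in edgeR was 14.3%, near the 11.6% of all genes tested. Those that fell were the iron exporter gene Slc40a1, from 74.6 ± 6.34 to 37.8 ± 12.3 CPM (edgeR adjusted p = 0.0249), and Aco1, the iron-sensing cytosolic aconitase, from 91.1 ± 9.36 to 60.3 ± 4.97 CPM (edgeR adjusted p = 0.0186).

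Of the 4 genes that fell, 3 had their highest blister value in blister 3, as did the sum of the hair follicle markers. Gclc, Txnrd1 and Ephx1 were there at 78.5, 105 and 38.6 CPM, and the summed follicle markers were 112, 79.7 and 610.2 CPM in blister 1, 2 and 3 and 3508, 2023 and 1891 CPM in controls. Within the controls the order differed, since control 1 was highest in follicle markers and not in any of these genes. Within the list Shh and Lef1 had their highest blister value in blister 1 (Shh at 13.8, 11.7 and 12.8 CPM), and the other 6 in blister 3. The summed melanocyte markers were also highest in blister 3 among blister libraries, at 315, 472 and 503 CPM, against 929, 788 and 931 CPM in controls. In Gstm5 blister 3 was the lowest library. Nearness of blister 3 to the controls was not limited to the falls. It was the blister library nearest to the control mean for 10 of the 14 genes that rose. The part of follicle cells and melanocytes in these falls was not tested.

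**Figure D3:**
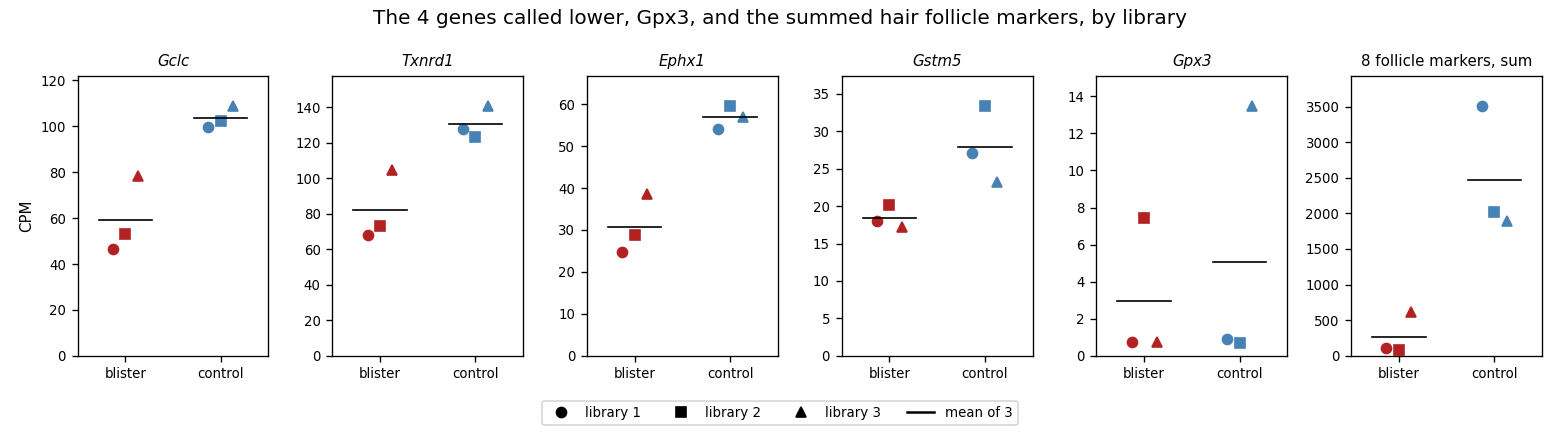
CPM in each library of Gclc, Txnrd1, Ephx1 and Gstm5, the 4 genes called lower, of Gpx3, and of the sum of 8 hair follicle markers, on linear axes from 0, with a bar at the mean of 3. Blister points lie below control points except for Gpx3, whose high libraries are blister 2 (7.43 CPM) and control 3 (13.5 CPM).

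Levels between genes were compared per length, as mean CPM per kb of merged exons in the GENCODE M21 annotation. That annotation may differ from the one the authors counted with. Merged exons join all annotated forms of a gene, from 1.05 kb for Txn1 to 13.9 kb for Slc7a11, and can exceed the form expressed. The order of genes depends in part on these lengths. On this scale Gpx1, Txn1 and Prdx1 were the highest of the 37 genes in controls, at 176, 145 and 121 CPM per kb, followed by Prdx2, Prdx5, Gsto1 and Fth1 at 84.6 to 101 CPM per kb. In blister libraries Gpx1 (329 CPM per kb) and Txn1 (280.3) kept the first places and Gsto1 came to the third (261). The most abundant of these RNAs included both genes that rose (Gpx1, Txn1, Prdx1, Gsto1) and genes that were not called (Prdx2, Prdx5, Fth1). Gsta4 went from place 34 of 37 in controls (2.21 CPM per kb) to place 12 in blister libraries (42.5 CPM per kb). Slc7a11 remained near the end of the order, at 0.382 and 1.73 CPM per kb. Ephx1 moved the other way, from place 12 to place 26, and Gclc from 14 to 25. The genes Fth1, Txn1 and Prdx1 have processed copies elsewhere in the genome, and how reads that fit several places were counted is not known.

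**Figure D4:**
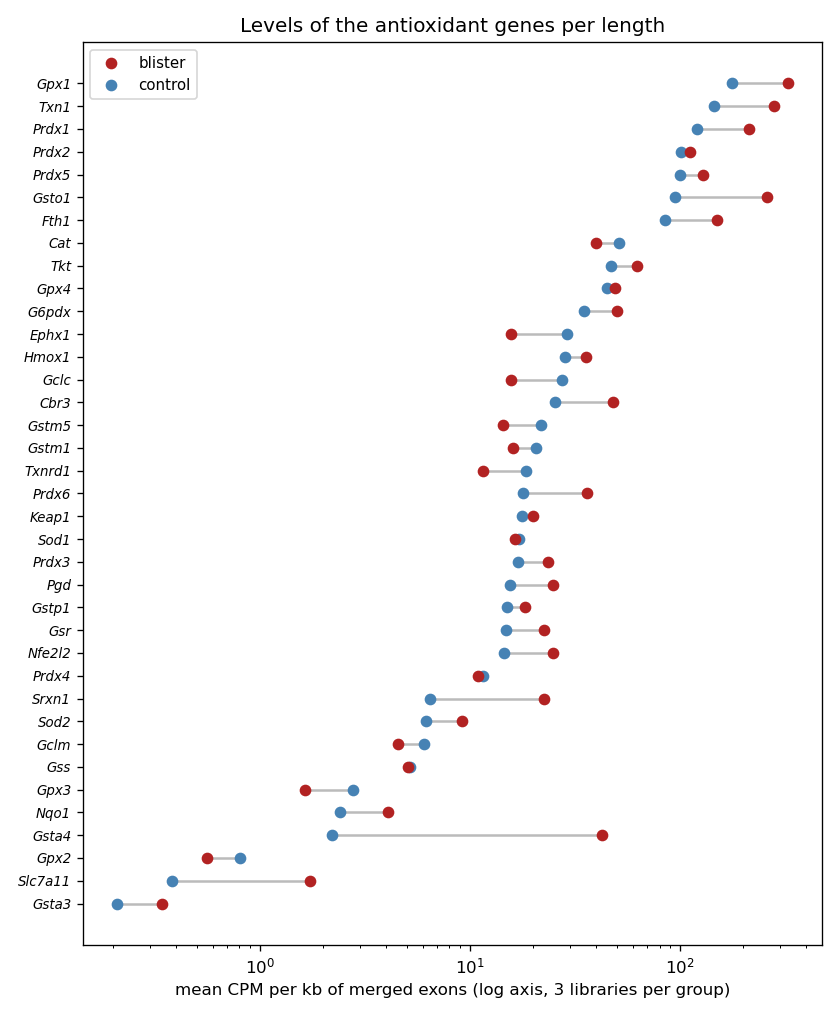
Mean CPM per kb of merged exons of the 37 tested genes in blister (red) and control (blue) libraries on a log axis, ordered by the control level, with a line joining the pair. Gpx1 leads at 176 CPM per kb in controls, and the longest line is that of Gsta4, from 2.21 to 42.5 CPM per kb.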

How the data were processed

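The authors deposited 1 table of raw counts per library, listing gene symbols with whole numbers of reads. The submitters' processing notes name HISAT2 2.0.0, featureCounts and the builds NCBIM37 and mm9, and no source used here gives the strand setting. Genes were tested with edgeR 4.0.16 in R 4.3.3: filterByExpr by group (minimum count 10, minimum total 15, 14028 genes kept), TMM factors, quasi-likelihood fits with the group as the single term, two-sided p-values adjusted by Benjamini-Hochberg over all genes tested, threshold 0.05. The procedure was run on simulated data with far fewer changed genes than were called here, so that run does not show how it performs on these data. The SE of a log2 fold change is its size over the root of F. The 38 genes, their classes and 112 further pathway genes were chosen with earlier results of these data known. Values in every library are given for called genes, the 2 genes of smallest p in each class and the most abundant ones, and, beyond that rule, for most of the others, and for further pathway genes the rule took the 2 called genes of smallest p with a mean of at least 5 CPM. Slc3a2, Sod3, Ccs and the genes named to complete a count were added after their values were seen. The values of 1 further pathway gene are not reported here. Alternatives were other scalings and filters, DESeq2 1.42.0, limma-voom (limma 3.58.1), the replicate number as a block, Xist log2 CPM as a covariate, and leaving out libraries or the 50 most abundant genes. Gene lengths and overlaps come from GENCODE M21 and promoters from RefSeq (GRCm38.p6), another build than the notes name. Plots were drawn with matplotlib 3.10.9.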

Additional observations from a re-analysis of the deposited data

How the results depend on the processing

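Leaving out 1 library gave 5 to 16 genes called higher, 0 to 3 called lower and a median log2 fold change of 0.39 to 0.52 over the 37 genes, while the calls over all genes ran from 785 to 4061 against 2993 with all libraries. Where a group is left with 2 libraries, the fit pools the spread over both groups. Library size alone gave 9 higher, 7 lower and a median of 0.16. The replicate number as a block gave 12 higher and 4 lower and ended the calls of Cbr3 and Prdx3, with no other call changed. Deviations of same-numbered libraries correlated at 0.21, -0.26 and 0.01, and 1 of 3 blister libraries correlated best with the control of its own number, so the numbers do not pair the libraries. Xist as a covariate gave 10 higher and 3 lower, and 1837 calls over all genes. Without blister 3 and control 3 there were 14 and 4, with Cbr3 and G6pdx lost and Fth1 and Gsr gained. The 18 called genes kept their direction in all 16 alternatives, and 7 of the genes not called did not (Gss, Gpx3, Gpx4, Prdx2, Prdx4, Sod1 and Keap1). Depth limits the genes with few reads, Gsta3 (9 to 21 counts per library), Gpx2 (10 to 44) and Gstt1 (1 to 25, not tested).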
